A study of Sus scrofa with 8 samples.

Results

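Hearts of Tibetan and Yorkshire pigs kept at 100 m were compared across 10276 of the 18975 genes listed. A gene entered the comparison with at least 1 FPKM in 2 of the libraries TL1, TL2 and YL1, and it was dropped where its FPKM in YL2 was more than 2 times that of each of the other 7 libraries. FPKM, the unit of every level below, is a read density scaled to the length of a transcript and to the size of a library. TL stands for Tibetan pigs, the native breed of the plateau, and YL for Yorkshire pigs, a commercial breed. Both were males of 6 months, with 2 RNA-seq libraries each, and each library held RNA of 4 pigs pooled in equal amounts. Another 4 libraries, of Tibetan (TH) and Yorkshire (YH) pigs of the same sex and age at 3000 m, entered the fit and are used for the last comparison. The spread between libraries is one between pools, and breed cannot be told apart from whatever else differed between the herds. The descriptions of YL1 and YL2 point to the file of TL, and both libraries were taken as YL by title and breed.

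YL2 stood apart from the other libraries. Of 37 listed kidney genes, 37 were highest in YL2 of all 8 libraries, with a summed level of 12830 FPKM in YL2 and of 6.15 to 23.7 FPKM in the others. *UMOD*, which encodes the kidney protein uromodulin, was at 947 FPKM in YL2 and listed at 0 in TL1, TL2 and YL1. None of the 37 is among the genes compared. Heart markers moved the other way: 22 cardiomyocyte genes summed to 43560 and 47070 FPKM in TL, 48260 FPKM in YL1 and 19990 FPKM in YL2, and YL2 was the lowest of the 4 libraries in 21 of 22. Gene lists are therefore given against YL1 and against YL2 as well as against their mean. The share of the differences from YL2 that comes with its kidney transcripts was not tested.

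From 18212619 (TL1) to 22800479 (TL2) reads fell on genes in each of the 4 libraries. The condition on YL2 dropped 609 of 10885 expressed genes (5.59%), with *SIKE1* (1.995 times the next library) among the last genes kept and *SERPINB1* (2.004 times) among the first dropped. The conditions also favor genes that are high in TL. Among the genes compared, 466 reached 1 FPKM through TL alone, since YL1 lay below 1 FPKM, and 191 of these lay below 1 FPKM in YL2 too. In the other direction, 157 genes at 1 FPKM or more in both YL libraries and below it in both TL libraries could not enter. The 2 TL libraries were close, with a median distance of 0.14 on the log2(FPKM + 1) scale and 177 genes more than 1 apart. The same values were 0.38 and 1388 genes between YL1 and YL2.

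As background, heart muscle is mainly cardiomyocytes by mass, with fibroblasts that lay down collagen, endothelial cells that line the vessels, and smooth muscle cells and pericytes around them. Cardiomyocytes burn mostly fatty acids, and their transcriptome is dominated by sarcomere and mitochondrial genes. Immediate early genes, such as *FOS* and *ATF3*, are transcribed within minutes of a stimulus or stress, without new protein synthesis. Genes of the swine leukocyte antigens (SLA), the pig's major histocompatibility complex, lie together on chromosome 7 and differ widely between breeds in sequence.

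Differences between breeds were tested with limma on log2(FPKM + 1), and a gene was called at a Benjamini-Hochberg adjusted p under 0.01 with a log2 fold change over 1 in size. Log2 differences below are TL minus YL on that scale, with ± the standard error of the fit (n = 2 libraries a breed). Only 1 of 10276 genes was called (0.00973%), the unnamed gene ENSSSCG00000030555, chromosome 2, 94078828 to 94078922 (coordinates here and below are those of the Sscrofa10.2 assembly). Its level was 2450 FPKM in TL1 and 1924 FPKM in TL2, and the file lists it at 0 elsewhere. Its limma adjusted p was 3.77e-07, but each of those TL values stands for 1 read on a very short gene. At an adjusted p under 0.05 there were 2 genes (0.0195%), the second being *TMEM163*, and under 0.1 there were 30 (0.292%). edgeR on the reads recovered from the deposited table gave 5 of 10222 genes at an adjusted p under 0.05 (0.0489%): *TMEM163*, *ATF3*, *TMEM35* and *ALOX12*, higher in TL, and *TMP-CH242-74M17.4*, lower in TL. *ALOX12*, a lipoxygenase, was named after its values were seen. So nearly every difference below is a measured separation of 2 pools from 2 pools that did not pass the test.

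Looser rules gave more genes higher in TL than lower. With the fold kept and p under 0.01 before adjustment, 181 genes (1.76%) were higher and 50 (0.487%) lower, and 46 of the 181 had entered through TL alone. Without YL2 this split was 133 to 117, and it was 489 to 177 without YL1, 98 to 27 without TL1 and 93 to 43 without TL2. Both TL libraries lay above both YL libraries in 2717 genes (26.4%) and below both in 1669 (16.2%), and these shares are the background for the counts of each gene group. Differences over 1 on the log2 scale against YL1 and also against YL2 were found for 189 genes (1.84%) higher and 61 (0.594%) lower in TL. The median over all genes compared was 0.06, with 0.04 against YL1 and 0.08 against YL2. An exact permutation test of 2 libraries against 2 cannot give a two-sided p under 0.333, so each p rests on the spread that limma shares between genes.

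**Figure D1:**
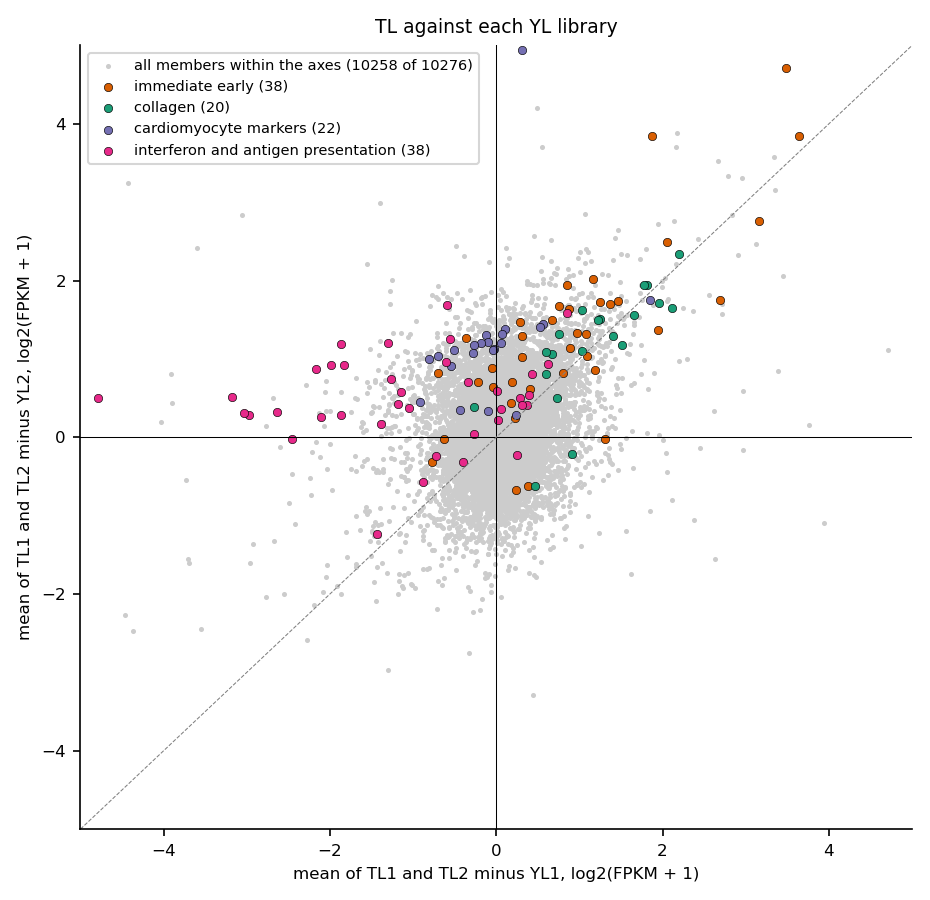
Each point is a gene, with the mean of TL1 and TL2 minus YL1 on the x axis and minus YL2 on the y axis, both as log2(FPKM + 1), for the 10258 of 10276 genes within the axes. The immediate early genes (median 0.83 and 1.28) and collagens (1.13 and 1.31) lie to the upper right, the cardiomyocyte markers (-0.10 and 1.15) above the middle, and the interferon and antigen presentation genes (-0.97 and 0.46) to the upper left.

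Of the gene lists, the immediate early genes held the largest single differences. Of the 38 measured, 26 (68.4%) had both TL libraries above both YL libraries, 1 had both below, and 13 were higher at an unadjusted p under 0.01. Among the 26 are *EGR2* and *DUSP5*, which entered the comparison through TL alone. For the whole list the median log2 difference was 1.01 (against YL1 alone 0.83, against YL2 alone 1.28), and no alternative processing took it outside 0.83 to 1.28. Their levels summed to 2071 and 1748 FPKM in TL and 792 and 595 FPKM in YL.

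*ATF3*, a stress-induced transcription factor of the ATF/CREB family (ENSSSCG00000015595, chromosome 9, 143690555 to 143703872), was at 144 and 179.6 FPKM in TL and 13.5 and 5.17 FPKM in YL (log2 difference 4.10 ± 0.43, limma adjusted p = 0.0503). The TL mean was 17.3 times the YL mean, and no library of one breed came near the other. *NR4A1*, an orphan nuclear receptor, was at 266 and 106 FPKM in TL and 12.5 and 10.8 FPKM in YL (log2 difference 3.75 ± 0.49, limma adjusted p = 0.0688), with TL1 well over TL2. *FOS*, a subunit of the AP-1 factor (ENSSSCG00000002383, chromosome 7, 104293656 to 104297121), was at 50.9 and 42.0 FPKM in TL and 4.30 and 5.98 FPKM in YL (log2 difference 2.96 ± 0.33, limma adjusted p = 0.0503). Its reads were further apart than its FPKM, at 10202 and 2334 reads in TL and 160 and 387 in YL, and TL1 had several times the reads of TL2 at a like FPKM. Such a gap between the scales is rare: of 9442 genes with 20 or more reads in each of the 4 libraries, 18 had log2 fold changes that differed by more than 1 between edgeR and limma.

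Other abundant early genes followed with smaller separations. *BTG2*, an antiproliferative cofactor, was at 253 and 96.6 FPKM in TL and 42.1 and 9.93 FPKM in YL (log2 difference 2.86). *DUSP1*, a phosphatase that switches off MAP kinases, was at 155 and 115 FPKM in TL and 59.0 and 32.0 FPKM in YL (log2 difference 1.59). *CTGF*, a matricellular protein of the CCN family, was at 81.2 and 151 FPKM in TL and 28.1 and 42.2 FPKM in YL (log2 difference 1.66). In these 3 genes the breeds did not overlap, although the 2 libraries of each breed differed by up to several times in *BTG2*. *GADD45G*, a growth arrest gene, was at 156 and 206 against 74.8 and 53.6 FPKM, and *RHOB*, a small GTPase, at 256 and 197 against 122 and 71.4 FPKM. The limma adjusted p of *BTG2*, *DUSP1*, *CTGF*, *GADD45G* and *RHOB* lay between 0.175 and 0.303. Not every early gene took part. The lowest difference of the list was -0.54, and in 11 of 38 genes the libraries of the breeds overlapped.

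**Figure D2:**
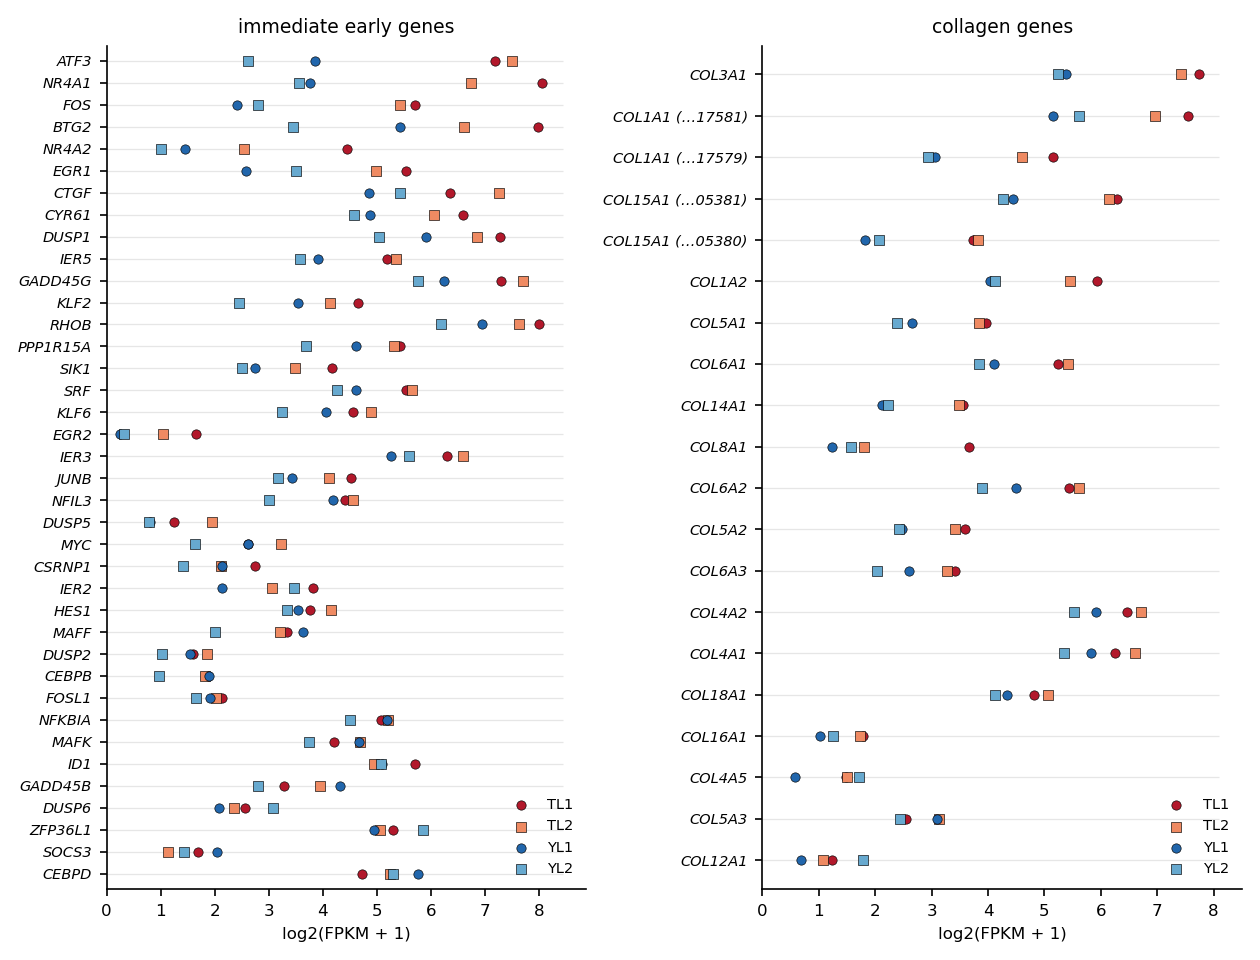
Level of every immediate early gene (38, left) and collagen gene (20, right) as log2(FPKM + 1) on the x axis in TL1, TL2, YL1 and YL2, with 1 point per library and genes ordered by log2 fold change. Both TL points lie right of both YL points in 26 early genes and in 17 collagens, and *ATF3* shows the widest gap.

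Collagen genes were higher in TL as a group, and this held against either YL library. Both TL libraries exceeded both YL libraries in 17 of 20 (85.0%), none had both below, and 12 were over 1 apart from YL1 and from YL2. The median log2 difference was 1.33 (against YL1 alone 1.13, against YL2 alone 1.31), and the levels summed to 922 and 825 FPKM in TL and 324 and 286 FPKM in YL. At an unadjusted p under 0.01 there were 3. *COL4A5* and *COL12A1* entered the comparison through TL alone, and both overlapped between the breeds.

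In TL the fibrillar collagens *COL3A1* and *COL1A1* had the highest FPKM of the family. The *COL1A1* level rests on a short gene model (chromosome 12, 26469601 to 26470127), with 314 and 239 reads in TL. By reads *COL4A2* was far above it, at 15148 and 21215 in TL. *COL3A1* (ENSSSCG00000016034, chromosome 15, 104067017 to 104105776) was at 213 and 171 FPKM in TL and 41.0 and 36.8 FPKM in YL (log2 difference 2.27 ± 0.85, limma adjusted p = 0.436). The abundant *COL1A1* model was at 187 and 124 FPKM in TL and 34.6 and 47.8 FPKM in YL (log2 difference 1.88), and *COL1A2*, which pairs with it in type I collagen, at 59.8 and 42.9 FPKM in TL and 15.4 and 16.5 FPKM in YL (log2 difference 1.61 ± 0.30, limma adjusted p = 0.134). Each of the 3 was 3.22 to 4.94 times as high in TL by group means. The large standard error of *COL3A1* came with TH1, at 18.2 FPKM against 172 in TH2, since all 8 libraries share the estimate. *COL15A1*, a collagen of basement membrane zones (ENSSSCG00000005381, chromosome 1, 269014796 to 269023294), was the tightest of the family at 77.2 and 70.0 FPKM in TL and 20.6 and 18.4 FPKM in YL (log2 difference 1.86 ± 0.22, limma adjusted p = 0.0503). The basement membrane collagens *COL4A1* (75.4 and 97.0 against 56.0 and 39.6 FPKM) and *COL4A2* (87.7 and 104 against 59.7 and 45.3 FPKM) were separated less, with log2 differences of 0.85 and 0.86. *COL1A1* and *COL15A1* are each listed as 2 gene models, and both models of each were higher in TL. A second *COL1A2* model was not among the genes compared.

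Other matrix genes went the same way by less. Of 50 genes for glycoproteins, proteoglycans and remodeling enzymes, 34 (68.0%) had both TL libraries above and 2 both below, with a median of 0.60 (against YL1 alone 0.51, against YL2 alone 0.80). Of the 34, *TIMP4* entered through TL alone. The most abundant, the small proteoglycan *DCN*, was at 266 and 225 FPKM in TL and 152 and 103 FPKM in YL (log2 difference 0.96). *SPARC*, a collagen-binding glycoprotein, was at 142 and 136 against 43.8 and 55.4 FPKM, and *MFAP5*, a microfibril protein, at 159 and 176 against 93.5 and 51.9 FPKM. *FBLN5*, an elastic fiber protein, overlapped at 32.1 and 58.8 against 97.2 and 54.3 FPKM, with YL1 the highest. The collagen chaperone *SERPINH1* showed little separation from YL1, at 171 and 151 against 150.4 and 79.9 FPKM.

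Markers of fibroblasts, smooth muscle cells with pericytes, and endothelial cells were mostly higher in TL. In bulk tissue, fewer cells of a type and less RNA per cell cannot be told apart, so these are levels of transcripts and not counts of cells. Fibroblast markers had a median of 1.14 (against YL1 alone 1.0, against YL2 alone 1.30), with 11 of 16 (68.8%) higher in both TL libraries, and 4 of these 16 are collagen gene models counted above. Smooth muscle and pericyte markers had a median of 0.88 (against YL1 alone 0.76, against YL2 alone 1.07), with 13 of 18 (72.2%), among them *CSPG4*, which entered through TL alone. Endothelial markers had a median of 0.49 (against YL1 alone 0.33, against YL2 alone 0.71), with 11 of 16 (68.8%) and 1 with both TL libraries below. The medians of these 3 lists were above 0 under each alternative processing.

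*NOTCH3*, the receptor that maintains vascular smooth muscle (ENSSSCG00000025176, chromosome 2, 61948628 to 61963162), was at 16.4 and 14.2 FPKM in TL and 5.79 and 5.46 FPKM in YL (log2 difference 1.30 ± 0.20, limma adjusted p = 0.0957), and a second model of the gene, at lower levels, showed the same order. *ACTA2*, smooth muscle actin, was at 74.9 and 50.4 FPKM in TL and 17.6 and 26.6 FPKM in YL (log2 difference 1.46), and *TAGLN*, its binding partner transgelin, at 98.4 and 75.9 against 40.4 and 42.3 FPKM. In both, YL2 was no lower than YL1. *DES*, desmin, which cardiomyocytes also express, did not separate the breeds at 1295 and 1728 against 3510 and 919.6 FPKM. The pericyte gene *RGS5* was higher in both TL libraries but close to YL1, at 64.0 and 62.8 against 59.5 and 22.5 FPKM. Among endothelial genes, *CLDN5*, a tight junction protein, was at 23.6 and 27.5 FPKM in TL and 9.18 and 11.4 FPKM in YL (log2 difference 1.24 ± 0.22, limma adjusted p = 0.128), and *PECAM1*, the junctional antigen CD31, at 71.4 and 81.9 against 52.0 and 35.7 FPKM. *EMCN*, endomucin, overlapped at 17.4 and 18.5 against 13.8 and 25.1 FPKM. *VIM*, the intermediate filament of mesenchymal cells, was at 206 and 192 FPKM in TL and 89.4 and 97.9 FPKM in YL (log2 difference 1.08).

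Globin transcripts were also higher in TL. The 6 measured blood genes had a median of 0.85 (against YL1 alone 0.78, against YL2 alone 0.92), with both TL libraries above in 4. *HBA*, alpha globin, was at 581 and 754 FPKM in TL and 256 and 231 FPKM in YL (log2 difference 1.44 ± 0.36, limma adjusted p = 0.228), and *HBB*, beta globin, at 649 and 642 FPKM in TL and 374 and 289.8 FPKM in YL (log2 difference 0.97). The red cell genes *SLC25A37*, a mitochondrial iron carrier (8.05 and 9.52 against 7.59 and 9.50 FPKM), and *AHSP*, a chaperone of alpha globin (1.24 and 2.17 against 1.42 and 3.04 FPKM), overlapped between the breeds. Globin genes are near-copies of each other, and reads shared between them could be split in counting. The part of blood left in the tissue in the other differences was not tested.

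For cardiomyocyte genes the difference depended on which YL library was used. The 22 cardiomyocyte markers had a median of 0.52 (against YL1 alone -0.10, against YL2 alone 1.15), and the 38 sarcomere and Z-disc genes one of 0.57 (against YL1 alone -0.09, against YL2 alone 1.31). *MYL3*, a ventricular myosin light chain, was at 7951 and 9276 FPKM in TL and 7963 and 3282 FPKM in YL, and *TNNI3*, cardiac troponin I, at 9287 and 10080 FPKM in TL and 11770 and 4597 FPKM in YL. In both, TL lay near YL1 and far over YL2. The same pattern held for 17 calcium cycling genes (median 0.36, with -0.11 against YL1 and 0.99 against YL2), for 71 nuclear genes of oxidative phosphorylation (median 0.29, with -0.16 against YL1 and 0.75 against YL2) and for the 13 measured genes of the mitochondrial genome (median 0.04, with -0.76 against YL1 and 0.89 against YL2). In all 13 mitochondrial genes YL1 was the highest and YL2 the lowest of the 4 libraries. Calling these lists higher or lower in TL is thus not possible from these libraries.

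A few muscle genes stood apart from that pattern. *ACTC1*, cardiac alpha actin (ENSSSCG00000004803, chromosome 1, 152412333 to 152417610), was at 4818 and 5018 FPKM in TL and 1367 and 1457 FPKM in YL (log2 difference 1.80 ± 0.38, limma adjusted p = 0.175), with YL1 and YL2 alike, unlike in most of the cardiomyocyte list. The skeletal isoform *ACTA1* overlapped, at 9944 and 15580 against 13040 and 5833 FPKM, so the ratio of the 2 sarcomeric actins differed between the breeds in these libraries. *FHL2*, a LIM protein of the sarcomere, was at 155 and 126 FPKM in TL and 60.8 and 35.4 FPKM in YL (log2 difference 1.56). *MYOM3*, a myomesin of the M-band, was at 57.8 and 51.8 FPKM in TL and 22.2 and 12.1 FPKM in YL (log2 difference 1.68). Actin genes are close in sequence, and the authors' counting could assign shared reads to either.

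The rule for single genes took the 15 higher and the 15 lower genes with the smallest limma p among 153 with a symbol, a mean of 5 FPKM or more in the higher breed, TL and YL libraries that did not overlap, and differences of the TL mean over 1 from both YL libraries (114 higher, 39 lower). Adjusted p ranged from 0.0165 to 0.0965 for the higher genes and from 0.0503 to 0.175 for the lower ones. The smallest belonged to *TMEM163*, a zinc transporter (ENSSSCG00000015700, chromosome 15, 19908540 to 20021754), at 7.94 and 11.8 FPKM in TL and 0.381 and 0.0846 FPKM in YL (log2 difference 3.13 ± 0.26, limma adjusted p = 0.0165). It had 213 and 366 reads in TL and 8 and 3 in YL, and its TL mean was 42.5 times that of YL. It entered the comparison through TL alone, as did *COLEC11* of the higher 15. The adjusted p of *TMEM163* ranged from 0.0184 to 0.133 over the alternative settings. *TMEM35*, a chaperone of acetylcholine receptors (ENSSSCG00000012490, chromosome X, 90744038 to 90757439), was at 17.6 and 22.5 FPKM in TL and 3.76 and 2.09 FPKM in YL (log2 difference 2.45 ± 0.28, limma adjusted p = 0.0503).

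The rest of the higher 15 fell into several kinds of gene. *SLPI*, a secreted inhibitor of leukocyte proteases, was at 124 and 135 FPKM in TL and 14.0 and 22.5 FPKM in YL (log2 difference 2.80 ± 0.38, limma adjusted p = 0.0771), 7.10 times as high in TL. *COLEC11*, a collectin of the lectin pathway of complement, was at 5.23 and 7.04 FPKM in TL and 0.373 and 1.31 FPKM in YL, and *ITIH5*, a hyaluronan-binding matrix protein, at 21.5 and 19.1 FPKM in TL and 6.98 and 5.83 FPKM in YL. *CD93*, a receptor of endothelial and myeloid cells, was at 27.6 and 29.1 FPKM in TL and 8.30 and 9.88 FPKM in YL. Cytoskeletal genes were the actin bundler *FSCN1* (14.2 and 15.9 against 3.84 and 3.48 FPKM) and the tubulin-binding *TPPP3* (15.9 and 15 against 4.87 and 3.17 FPKM). *PHF19*, a subunit of Polycomb repressive complexes, was at 7.84 and 6.77 against 1.59 and 1.80 FPKM, and *RNF122*, a RING ubiquitin ligase, at 16.3 and 21.9 against 6.32 and 5.14 FPKM. None of these genes had a TL library below a YL library, which the rule required.

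**Figure D3:**
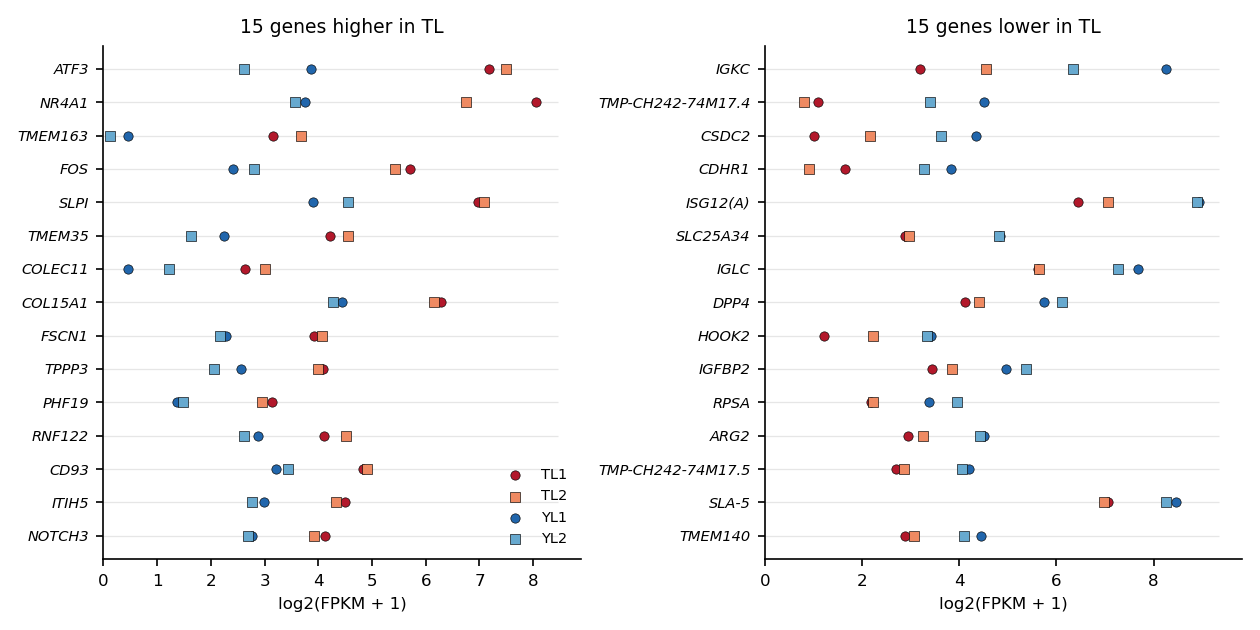
Levels as log2(FPKM + 1) of the 15 genes higher (left) and the 15 genes lower (right) in TL that the rule named, with 1 point per library. The rule required that the breeds not overlap. *ATF3* has the largest mean difference of the higher genes (4.10) and *IGKC* of the lower (-3.42), with a wide spread of *IGKC* within each breed.

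The lower 15 included SLA, immunoglobulin and interferon-induced genes. *TMP-CH242-74M17.4*, a gene model in the SLA region (ENSSSCG00000001397, chromosome 7, 24704563 to 24708270), was at 1.14 and 0.741 FPKM in TL and 21.7 and 9.52 FPKM in YL (log2 difference -3.00 ± 0.35, limma adjusted p = 0.0503). Nearby on chromosome 7, *SLA-5*, a class I gene (24683604 to 24687412), was at 133 and 125 FPKM in TL and 351 and 304 FPKM in YL (log2 difference -1.33 ± 0.25, limma adjusted p = 0.134), and *TMP-CH242-74M17.5* (24655719 to 24659039) at 5.52 and 6.27 FPKM in TL and 17.4 and 15.5 FPKM in YL. The class I gene *SLA-2* was on the other side, at 224 and 296 against 196 and 177 FPKM. Immunoglobulin constant genes were lower too, *IGKC* (kappa) at 8.19 and 22.5 FPKM in TL and 303 and 80.4 FPKM in YL (log2 difference -3.42 ± 0.72, limma adjusted p = 0.175) and *IGLC* (lambda) at 48.1 and 49.2 FPKM in TL and 203 and 152 FPKM in YL (log2 difference -1.83 ± 0.34, limma adjusted p = 0.134). *ISG12(A)*, an interferon-induced gene of the IFI27 family, was at 86.5 and 132 FPKM in TL and 491 and 474 FPKM in YL (log2 difference -2.17 ± 0.33, limma adjusted p = 0.0965). SLA, immunoglobulin and IFI27 genes have near-copies and SLA genes differ between breeds, so reads could be lost or moved between copies in alignment to a single reference genome, and whether this entered the differences was not tested.

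The other lower genes had varied functions. *DPP4*, a peptidase of the cell surface (ENSSSCG00000015894, chromosome 15, 76152547 to 76235571), was at 16.5 and 20.3 FPKM in TL and 52.3 and 68.4 FPKM in YL (log2 difference -1.66 ± 0.25, limma adjusted p = 0.0957), 3.28 times as high in YL. *SLC25A34*, a mitochondrial carrier, was at 6.36 and 6.78 FPKM in TL and 27.6 and 27.3 FPKM in YL (log2 difference -1.91 ± 0.29, limma adjusted p = 0.0957), with almost the same level in YL1 and YL2. *ARG2*, the mitochondrial arginase, was at 6.65 and 8.48 against 21.7 and 20.6 FPKM, and *IGFBP2*, a binding protein of insulin-like growth factors, at 9.84 and 13.3 against 30.0 and 40.3 FPKM. In these 4 genes YL1 and YL2 were nearer to each other than to TL. *CDHR1*, a cadherin-related gene, was at 2.11 and 0.877 against 13.2 and 8.63 FPKM, and *CSDC2*, which encodes a cold shock domain protein, at 1.01 and 3.49 against 19.4 and 11.4 FPKM. *HOOK2*, a dynein adaptor, was at 1.33 and 3.65 against 9.63 and 9.12 FPKM. These 3 genes were low in both TL libraries. *TMEM140*, a membrane protein gene, was at 6.35 and 7.34 against 20.8 and 16.1 FPKM. *RPSA*, a ribosomal protein gene of a family with many pseudogenes, was at 3.56 and 3.66 against 9.38 and 14.4 FPKM, while the 75 ribosomal genes had a median of 0.07. *DPP4*, *IGFBP2* and *RPSA* were higher in YL2 than in YL1, and kidney also expresses *DPP4*. Its difference from YL1 alone was -1.47 on the log2 scale.

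Interferon-stimulated genes set YL1 apart from the other 3 libraries. The 38 genes of interferon response and antigen presentation had a median of -0.31 (against YL1 alone -0.97, against YL2 alone 0.46), and in 18 of them YL1 was more than 2 times each of TL1, TL2 and YL2, as against 143 of all 10276 genes. *CXCL10*, an interferon-induced chemokine, was at 9.19 and 16.3 FPKM in TL and 366 and 8.41 FPKM in YL (log2 difference -2.14 ± 1.56, limma adjusted p = 0.763). The sign of the breed difference of these genes thus depended on YL1. Libraries of the breeds did not overlap in 11 of 38. Of these, 7 were higher in TL (18.4%, all genes compared 26.4%) and 4 lower (10.5%, all genes compared 16.2%). The abundant genes of antigen presentation were not set apart in YL1 to this degree. *B2M*, the light chain of class I molecules, is listed as 2 models, at 428 and 473 against 543 and 437 FPKM and at 195 and 202 against 153 and 149 FPKM, and *SLA-DQA1*, a class II chain, was at 97.8 and 108 against 75.9 and 58.4 FPKM. The 9 measured T and NK cell markers had a median of -0.22 (against YL1 alone -0.36, against YL2 alone -0.05) and the 16 macrophage and myeloid markers one of 0.12 (against YL1 alone 0.05, against YL2 alone 0.28). In each of these marker lists, 1 gene entered the comparison through TL alone.

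Fatty acid genes leaned lower in TL against YL1, while against YL2 they were split, with 14 of 27 higher in TL. Of 27 genes of uptake and oxidation, 11 (40.7%) had both TL libraries below both YL libraries, where all genes compared gave 16.2%, and 2 had both above. The median was -0.22 (against YL1 alone -0.38, against YL2 alone 0.04), so the sign changes without YL1. *PDK4*, a kinase that inhibits pyruvate dehydrogenase (ENSSSCG00000015334, chromosome 9, 82625076 to 82638263), was at 6.50 and 34.7 FPKM in TL and 359 and 77.7 FPKM in YL (log2 difference -3.36 ± 0.84, limma adjusted p = 0.225). Its YL mean was 10.6 times the TL mean. Libraries of the same breed differed widely, with TL1 far under TL2 and YL1 far over YL2, but the breeds did not overlap. Abundant enzymes of the pathway lay close together apart from single libraries, with *HADHA* at 205 and 241 against 356 and 214 FPKM, *ACADM* at 226 and 233 against 229 and 266 FPKM and *HADH* at 248 and 266 against 238 and 245 FPKM. *CD36*, the fatty acid translocase, was at 283 and 304 against 328 and 109 FPKM, and followed the cardiomyocyte pattern of a low YL2. At an unadjusted p under 0.01 there were 3 genes lower, *PDK4*, *ANGPTL4*, an inhibitor of lipoprotein lipase, and *SLC25A20*, the carnitine-acylcarnitine carrier, and the latter pair was named after values were seen.

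Metabolic, hypoxia and other lists are given by their medians against each YL library. Glycolysis and glycogen genes (35) had a median of 0.33 (against YL1 alone 0.10, against YL2 alone 0.62), hypoxia response genes (27) 0.09 (against YL1 alone 0.07, against YL2 alone 0.02), cytosolic ribosomal genes (75) 0.07 (against YL1 alone -0.11, against YL2 alone 0.23), and heat shock and chaperone genes (28) -0.05 (against YL1 alone -0.29, against YL2 alone 0.25). *VEGFA*, the vascular growth factor, was at 53.3 and 86.5 against 71.2 and 54.0 FPKM, and *EPAS1*, which encodes HIF-2 alpha, at 60.3 and 64.5 against 55.2 and 44.6 FPKM. The transferrin receptor *TFRC* was the hypoxia gene farthest apart, at 68.8 and 65.6 FPKM in TL and 35.5 and 27.1 FPKM in YL (log2 difference 1.09 ± 0.27, limma adjusted p = 0.222). Atrial markers (9) had a median of 0.64 (against YL1 alone 0.35, against YL2 alone 1.12), with both TL libraries above in 5 and below in 1, and adipocyte markers (8) one of 0.52 (against YL1 alone 0.58, against YL2 alone 0.19), with 4 above and 1 below. Of the 8 adipocyte genes, 4 entered the comparison through TL alone, so their side was partly set by the conditions. Circadian clock genes (15) had a median of 0.20 (against YL1 alone 0.24, against YL2 alone 0.11) and glucocorticoid response genes (21) one of -0.14 (against YL1 alone -0.21, against YL2 alone -0.00). Of the circadian genes, 2 entered the comparison through TL alone. The median changed sign between YL1 and YL2 for complement and coagulation genes (28), at 0.20, with -0.08 against YL1 and 0.47 against YL2, and for renin-angiotensin genes (8), at 0.13, with -0.05 against YL1 and 0.36 against YL2. Cardiac stress genes (15) had a median of 0.45 (against YL1 alone -0.07, against YL2 alone 0.73), with *ANKRD1*, a stretch-responsive repressor, at 885 and 1873 against 3143 and 961 FPKM. *CLU*, clusterin, was the complement gene with the largest difference, at 121 and 58.9 FPKM in TL and 645 and 219 FPKM in YL (log2 difference -2.14 ± 0.62, limma adjusted p = 0.286), with a wide spread within each breed. The 4 measured skeletal muscle markers had a median of -0.10 (against YL1 alone -1.15, against YL2 alone 0.85), and of these *TNNT1*, slow troponin T, was at 30.3 and 27.9 against 124 and 19.2 FPKM. The 4 measured genes on chromosome Y (*DDX3Y*, *USP9Y*, *ZFY* and *UTY*) were expressed in all 4 libraries, with a lowest value of 1.09 FPKM.

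Among 21 genes that the study related to hypoxia, chosen in part on these libraries and so no independent evidence, none passed the test. Both TL libraries were above both YL libraries in 12 of them and below in 4, and 5 overlapped. All genes compared gave 26.4% above and 16.2% below. *ATF3*, *FOS*, *CTGF*, *DUSP1*, *COL3A1*, *DPP4* and the globins are described above. *AGT*, angiotensinogen (ENSSSCG00000010184, chromosome 14, 64380783 to 64389549), was at 70.4 and 94.3 FPKM in TL and 28.4 and 27.7 FPKM in YL (log2 difference 1.5 ± 0.25, limma adjusted p = 0.115). *A2M*, a protease inhibitor of plasma, was at 12.6 and 13.8 FPKM in TL and 50.9 and 56.1 FPKM in YL (log2 difference -1.94 ± 0.53, limma adjusted p = 0.249). The natriuretic peptides went opposite ways with a wide spread within breeds, *NPPA* at 53.1 and 108 against 23.3 and 46.3 FPKM and *NPPB* at 7.75 and 51.7 against 278 and 64.3 FPKM (limma adjusted p = 0.666 and 0.580). *EGLN3*, a HIF prolyl hydroxylase, was at 38.0 and 43.9 against 79.7 and 34.5 FPKM, *CRYAB*, a small heat shock protein, at 1041 and 1250 against 2636 and 717 FPKM, and *ANXA2*, annexin A2, at 72.7 and 77.6 against 74.2 and 52.7 FPKM. *CD44*, the hyaluronan receptor, *PDLIM3*, a Z-disc protein, *TGFB2* and *FGF1*, a pair of growth factors, had log2 differences of -0.28, 1.22, 0.72 and 0.69, and edgeR on reads gave the opposite sign for *TGFB2* (-0.35). The chemokine *CCL5* (0.14) and *DECR1* (0.02), a reductase of fatty acid oxidation, showed next to no difference, and of the other genes measured by RT-qPCR, *ADHFE1*, an alcohol dehydrogenase, was at 48.8 and 54.5 against 54.7 and 101 FPKM and muscle creatine kinase *CKM* at 2698 and 2678 against 2745 and 1226 FPKM.

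The breed difference at 3000 m, from other libraries, was set beside that at 100 m for the same genes. Of the 181 genes higher in TL at an unadjusted p under 0.01, 98 (54.1%) had both TH libraries above both YH libraries, where all genes compared gave 26.0%, and 34 (18.8%) had both below. Of the 50 lower genes, 26 (52.0%) had both TH libraries below both YH libraries, against 27.0%, and 12 (24%) had both above. The p that chose these genes used the spread within TH and YH too, which favors genes that do not overlap at 3000 m on either side, so the counts of both sides are a description. Of the 15 higher genes named by the rule 12 kept their side without overlap at 3000 m and 0 had the opposite side, and of the 15 lower genes 9 kept it and 4 had the opposite one. *SLPI* was alike at both altitudes, at 135 and 113 FPKM in TH and 11.3 and 24.1 FPKM in YH, and *FOS* too, at 53.9 and 85.5 FPKM in TH and 3.40 and 5.91 FPKM in YH. *DPP4* (11.3 and 9.01 FPKM in TH and 41.9 and 48.9 FPKM in YH), *SLA-5* (71.3 and 60.9 FPKM in TH and 254 and 299 FPKM in YH) and *CDHR1* (3.32 and 1.57 FPKM in TH and 10.8 and 11.4 FPKM in YH) were on the lower side at both. By lists, immediate early genes had a median of 0.81 at 3000 m (27 of 38 above), whereas collagen had 0.42 (3 of 20 above), with TH1 far below TH2 in *COL3A1* and *SPARC*. Fibroblast (0.04) and endothelial markers (-0.08) had medians near 0, smooth muscle and pericyte markers had 0.21 (9 of 18 above, 1 below) and blood genes 1.06 (5 of 6 above). Differences between the altitudes were not tested for lists.

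The difference between the 2 breed effects was tested as an interaction in the same fit. It was called for 1 gene (0.00973%), again ENSSSCG00000030555, and 1291 genes had an unadjusted p under 0.05. Among the 153 genes, the smallest p of the higher ones were those of *NT5C1A*, *TMEM163*, *CORIN*, *MYOM3* and *AGT*. *NT5C1A*, a nucleotidase that makes adenosine from AMP, was at 19.6 and 17.9 FPKM in TL and 5.97 and 4.66 FPKM in YL but at 1.37 and 3.96 FPKM in TH and 23.1 and 17.2 FPKM in YH (difference of the breed effects 4.27 ± 0.50, limma adjusted p = 0.153). *CORIN*, the protease that activates atrial natriuretic peptide, was at 11.2 and 9.83 against 4.63 and 2.21 FPKM at 100 m and at 3.85 and 4.32 FPKM in TH and 10.4 and 14.3 FPKM in YH (difference 2.81 ± 0.43, limma adjusted p = 0.153). *MYOM3* and *AGT* also had the opposite order at 3000 m, and *TMEM163* a smaller separation at 1.11 and 0.610 FPKM in TH and 0.235 and 0.220 FPKM in YH. Among the lower genes these were *IGFBP2*, *ARG2*, *SLC5A6*, *SDF2L1* and *RPSA*. *IGFBP2* was at 39.6 and 38.8 FPKM in TH and 13.5 and 19.1 FPKM in YH (difference -2.76 ± 0.38, limma adjusted p = 0.153), the reverse of its order at 100 m. *SLC5A6*, a vitamin transporter, was at 4.45 and 5.46 FPKM in TL and 12 and 21.1 FPKM in YL and at 50.7 and 34.5 FPKM in TH and 10.7 and 19.4 FPKM in YH, and *SDF2L1*, an endoplasmic reticulum chaperone, at 1.06 and 2.23 FPKM in TL and 4.83 and 9.34 FPKM in YL and at 12.8 and 7.69 FPKM in TH and 1.78 and 3.51 FPKM in YH. These adjusted p miss the threshold, so a difference between altitudes is not shown for these 10 genes, nor is its absence.

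**Figure D4:**
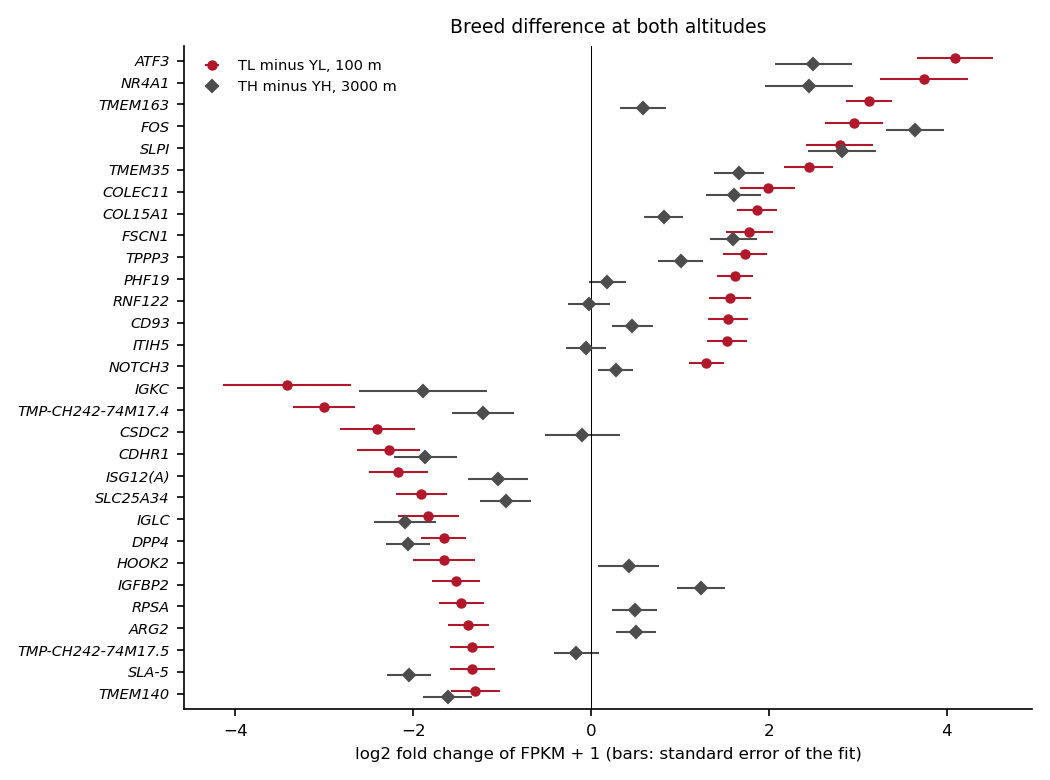
Breed difference of the 30 genes named by the rule as log2 fold change on the x axis, TL minus YL at 100 m (circles) and TH minus YH at 3000 m (diamonds), with bars of 1 standard error of the fit. *SLPI*, *FOS* and *DPP4* lie on the same side at both altitudes, whereas *IGFBP2*, *ARG2*, *RPSA* and *HOOK2* lie left of 0 at 100 m and right of 0 at 3000 m.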

How the data were processed

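Heart RNA was sequenced in 8 libraries, 2 for each of TL, YL, TH and YH, each a pool of 4 pigs. The authors aligned the reads with TopHat2 2.0.9 and Bowtie 0.12.5 to Sscrofa10.2, and per the submitters' processing notes used Cufflinks 2.1.1 and DESeq 1.10.1. The deposited values used here are FPKM per gene and, as a signal, read counts that the authors divided by a size factor. Whole reads were recovered from the latter (tolerance 0.1 reads), and the authors' columns of group means, ratios and p-values were not used. Gene coordinates and symbols are those of the deposited files.

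From these, log2(FPKM + 1) was fitted for all 8 libraries with limma 3.58.1 (R 4.3.3) with a trend on the mean, with Benjamini-Hochberg adjustment over all 10276 genes. edgeR 4.0.16, a quasi-likelihood test on recovered reads with at least 10 reads over the 4 libraries, was an alternative. So were a pseudocount of 0.1, other filters, median-ratio scaling and a replicate term. TL1, TL2, YL1 and YL2 were also left out in turn, but no TH or YH library was. Summaries and plots used Python 3.11.15, pandas 2.3.3 and matplotlib 3.10.9. In simulated data for TL against YL, 200 of 10276 genes were changed by a log2 fold of 3. At the threshold of 0.01 limma recovered 79% of them (0 false calls), and edgeR 95.5% of 200 among 10222 genes (2 false calls). The changed genes were drawn from well expressed ones, with noise independent between genes and libraries. A mixture of tissues was not simulated. These shares are therefore not those for low genes, smaller folds or a library like YL2.

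The text names every called gene, the 15 genes per direction with the smallest p by the rule given with them, 21 genes the study related to hypoxia and those of its RT-qPCR, up to 6 of the most abundant genes of a list, and 5 per direction with the smallest interaction p. The members and the 30 gene lists were chosen with earlier results of these data known. Depth limits low genes: 26 of the genes compared had at most 2 reads in each of the 4 libraries.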

Additional observations from a re-analysis of the deposited data

Results flagged for a closer look

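The gene ENSSSCG00000030555 had a breed effect at 100 m that differed from that at 3000 m, by 11.1 on the log2(FPKM + 1) scale (standard error 0.29, limma adjusted p = 5.27e-06). This size depends on the pseudocount, because the gene was listed at 0 in both YL, both TH and both YH libraries. Each TL library held 1 read of it, so the depth behind the difference is 2 reads in all. It was not tested with edgeR, which needed 10 reads.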

How the results depend on the processing

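The single call between TL and YL was 1 with a pseudocount of 0.1, a mean of at least 10 FPKM, other rules on YL2 and median-ratio scaling. It became 2 with no filter on low values, 3 with only the 4 libraries in the fit, 2 at an adjusted p under 0.05 and 231 at an unadjusted p under 0.01. With 1 library left out in turn it was 1 to 5, the 5 without YL2. edgeR on recovered reads called 0 at the same threshold, with 5 at an adjusted p under 0.05 and 953 at an unadjusted p under 0.05. Without YL2 edgeR called 1 gene for TL to YL and 1 for the interaction, in both *ASH1L* (adjusted p = 0.00302 and 0.00571), a gene named after its values were seen, with 0 reads in YL1 and 1242 in YL2. The interaction, called for 1 gene, gave 5 with no filter, 1 to 4 with 1 library left out (3 without YL1, 4 without YL2), 354 at an unadjusted p under 0.01, and 0 with edgeR, where 1275 genes had an unadjusted p under 0.05. The cause of these shifts was not tested, beyond the fewer or more genes and libraries that some settings hold.

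The numbers of genes higher and lower at an unadjusted p under 0.01 were 181 and 50. They were 489 and 177 without YL1, 133 and 117 without YL2, 98 and 27 without TL1, 93 and 43 without TL2, 194 and 78 with edgeR, and 135 and 138 with edgeR without YL2. A mean of at least 10 FPKM left 87 and 23. Between libraries of the same replicate number, deviations from group means correlated at -0.141 for TL and YL and at 0.137 for TH and YH. The YL deviations include whatever sets YL2 apart, so these values cannot tell whether replicate numbers pair the samples. A replicate block gave 1 call, with 192 genes higher and 51 lower. Crossed pairing, chosen after seeing the data, gave 1 call, with 206 and 54. For named genes and lists, 3413 values under the alternatives stayed within their spread or on their side, 146 moved and 1 passed the threshold. Signs did turn in results that were never called: the median of 14 of 29 lists and 75 of 196 named genes had the opposite sign under at least 1 alternative. The p-values rest on 2 pools per breed.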
